A study of Homo sapiens with 12 samples.

Results

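ATG12 and 9 other core autophagy genes (ATG3, ATG5, ATG7, ATG10, ATG16L1, MAP1LC3B, GABARAPL1, SQSTM1 and BECN1) were followed across 4 groups of cultured human colorectal cells. The genes were chosen by name, with ATG12 placed first because its level differed between HCT116 and 2 derived lines on these same arrays. They are 10 of the 19775 genes with a probe set of their own, and 31 probe sets name at least 1 of them. The groups were HCT116 control cells with 25 ng/ml doxycycline for 3 days, HCT116 control cells with vehicle for 3 days, Hke3 cells and Hkh-2 cells, with 3 arrays each. HCT116 is an epithelial line from a human colon carcinoma that carries an activated RAS allele. Hke3 and Hkh-2 were made from HCT116 by homologous recombination at that locus, are labelled as wild type there, and each descends from a single clone, so a difference from HCT116 cannot be told apart from a difference between clones. All cells were grown in DMEM with serum, and Hke3 and Hkh-2 were kept in basal culture without vehicle. In the study's methods doxycycline was used to induce short hairpin vectors, and what the control cells carried is not given in the sources used here. The labels do not say whether replicate arrays stem from separate cultures, so p-values measure only the spread between these arrays.

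Macroautophagy encloses cytoplasm in a double membrane, the autophagosome, and delivers it to the lysosome. ATG12 is a ubiquitin-like protein that is joined covalently to ATG5 by the activating enzyme ATG7 and the conjugating enzyme ATG10, and the conjugate binds ATG16L1. This complex places ATG8-family proteins such as MAP1LC3B (LC3B) and GABARAPL1, carried by ATG7 and then ATG3, on the lipid phosphatidylethanolamine of the growing membrane. SQSTM1 (p62) brings ubiquitinated cargo to ATG8 proteins and is itself degraded with it, and BECN1 is a subunit of the lipid kinase complex that starts the membrane. In tumour cells with activated RAS, autophagy has been described as a source of nutrients. RNA levels do not measure autophagic flux.

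The values are log2 RMA values, 1 per probe set and array. They are relative to the arrays normalized together, so levels are compared between arrays for 1 probe set and not between probe sets, and in bulk RNA fewer expressing cells and less RNA per cell cannot be told apart. Each gene is given by its probe set of highest mean and was tested where at least 1 group mean was 6 or more, which held for all 10 genes and for 12852 of the 19775. Within groups arrays correlated with r between 0.993 and 0.998. 2 arrays, HCT116 vehicle replicate 2 and Hke3 replicate 3, deviated most from their groups and shared their deviations (r = 0.683 across the genes tested). Of 10 colon epithelial markers, 9 had a group mean of 6 or more in every group, with EPCAM between 13.09 and 13.25, and LGALS4 was under 6 in all. Of 9 markers of other cell types, PTPRC, ALB, CDH5 and COL1A2 were under 6 in every group (3.64 to 5.28), whereas COL1A1 (8.19 to 8.43), PECAM1 (6.56 to 6.86), DCN (6.01 to 6.21) and CD3E (6.04 to 6.18) were above it in all, and GFAP lay between 5.95 and 6.22.

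ATG12 was high in HCT116 with either treatment and low in both recombined lines. On its probe set of highest mean, 213026_at, it had log2 values of 12.48, 12.39 and 12.57 in HCT116 with doxycycline and 12.64, 12.39 and 12.55 in HCT116 with vehicle. Hke3 had 10.20, 10.25 and 9.69, and Hkh-2 had 9.86, 9.92 and 9.98. All 6 HCT116 arrays lay above all 6 arrays of the recombined lines. Group means were 12.48 ± 0.091 with doxycycline, 12.53 ± 0.13 with vehicle, 10.05 ± 0.31 in Hke3 and 9.92 ± 0.059 in Hkh-2 (SD, n = 3 each). HCT116 vehicle exceeded Hke3 by 2.48 log2 units, a 5.58-fold difference, and Hkh-2 by 2.61, a 6.10-fold difference (SE of the fit 0.128 for each). Among the 12852 genes tested, ATG12 ranked 18th from the top by its difference from Hke3 and 20th by its difference from Hkh-2. Because ATG12 was chosen for this pattern, its size and rank follow from that choice, and no p-value is given for it.

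The other 2 ATG12 probe sets likewise had both HCT116 groups above Hke3 and Hke3 above Hkh-2 in their means, whereas the order of doxycycline and vehicle was not the same on all 3. On 204833_at the values were 11.24, 11.14 and 11.38 with doxycycline, 11.37, 11.03 and 11.32 with vehicle, 9.48, 9.41 and 8.80 in Hke3, and 8.73, 8.88 and 8.97 in Hkh-2. On 213930_at they were 9.20, 9.13 and 9.25 with doxycycline, 9.20, 8.85 and 9.25 with vehicle, 6.86, 6.70 and 6.01 in Hke3, and 6.23, 6.00 and 6.25 in Hkh-2. Over the 3 probe sets the difference from Hke3 was between 2.01 and 2.57 log2 units and that from Hkh-2 between 2.37 and 2.94. The spacing between the lowest HCT116 vehicle array and the highest array of either line was never under 1.55 log2 units, so the probe sets differed in the size of the change and not in its direction. The 3 probe sets come from the same 12 hybridizations and are not independent replicates.

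Neither the order of the recombined lines nor an effect of doxycycline stood clear of the spread for ATG12. Hke3 exceeded Hkh-2 by 0.13 to 0.37 log2 units over the 3 probe sets, and the arrays of the lines overlapped on each. That overlap came from Hke3 replicate 3, since Hke3 replicates 1 and 2 lay above every Hkh-2 array on each probe set. Doxycycline minus vehicle was between -0.05 and 0.09, again with overlap on each probe set. Hke3 replicate 3 was the lowest Hke3 array on all 3 probe sets, with deviations from its group mean of -0.357, -0.432 and -0.513. HCT116 vehicle replicate 2 was likewise the lowest vehicle array, with deviations of -0.140, -0.210 and -0.246. Without both arrays the difference of HCT116 vehicle on 213026_at was 2.37 from Hke3 and 2.68 from Hkh-2, and Hke3 minus Hkh-2 was 0.31.

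**Figure D1:**
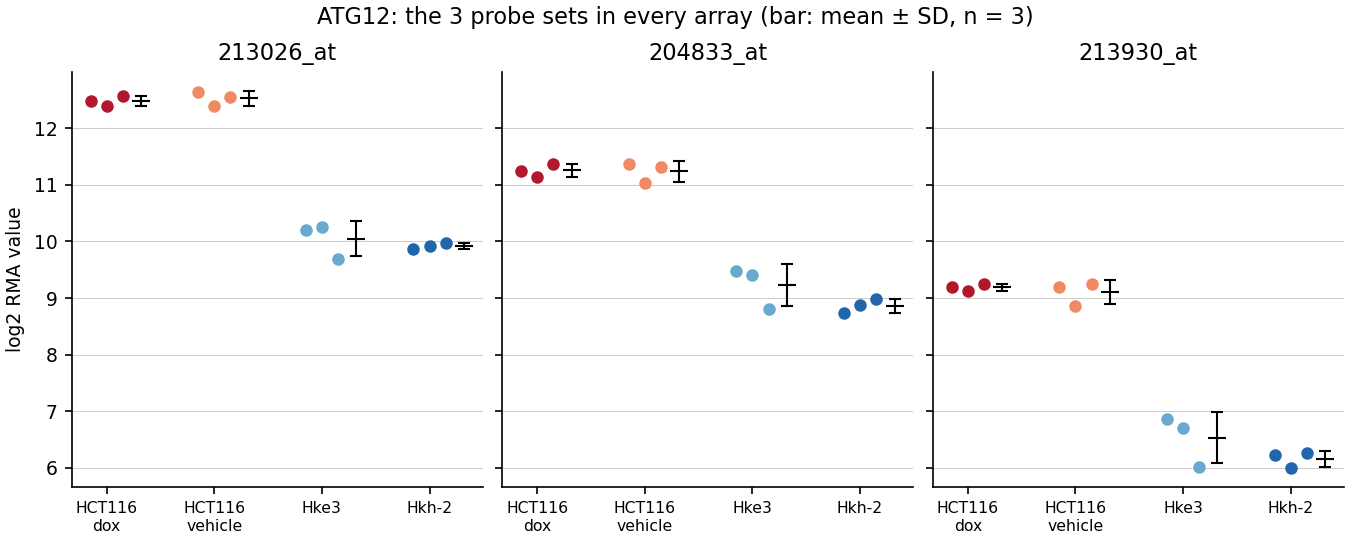
Log2 RMA value (vertical axis) of the 3 ATG12 probe sets, 1 panel each, in every array of HCT116 with doxycycline, HCT116 with vehicle, Hke3 and Hkh-2 (horizontal axis), points left to right being replicates 1 to 3 and bars the mean ± SD (n = 3). On each probe set the HCT116 arrays lie above those of both recombined lines by at least 1.55 log2 units for vehicle, and Hke3 replicate 3 is the lowest Hke3 array.

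The gene next to ATG12 on chromosome 5 had the profile most like it. The 5 genes with the highest Pearson correlation with ATG12 over the 12 arrays were AP3S1 (r = 0.9975), ASMTL (0.9966), CTH (0.9956), MBNL1 (0.9951) and MSX2 (0.9937). These points form 2 clusters, HCT116 and the recombined lines, so the coefficients mainly measure that split, and they carry no p-value. AP3S1 encodes a subunit of the adaptor complex AP-3, which sorts cargo to lysosomes, CTH encodes the cysteine-forming enzyme cystathionine gamma-lyase, and MBNL1 is a splicing regulator. AP3S1 had values of 13.79, 13.75 and 13.78 in HCT116 with doxycycline and 13.83, 13.79 and 13.80 with vehicle. It had 12.56, 12.54 and 12.43 in Hke3 and 12.45, 12.42 and 12.48 in Hkh-2. HCT116 vehicle was 1.30 above Hke3 and 1.36 above Hkh-2, so that all HCT116 arrays again lay above all others, with Hke3 replicate 3 the lowest of its group.

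In the RefSeq annotation of GRCh38.p14, ATG12 and AP3S1 start head to head on opposite strands of chromosome 5, with 369 bases between the starts. The 250 bases before each start are shown because they share sequence and the genes had like profiles. Capitals mark the 131 bases that lie in both windows, read on opposite strands. AP3S1 has 3 such windows in the table, and the one that meets the ATG12 window is printed.
ATG12, chr5:115841566-115841815, minus strand: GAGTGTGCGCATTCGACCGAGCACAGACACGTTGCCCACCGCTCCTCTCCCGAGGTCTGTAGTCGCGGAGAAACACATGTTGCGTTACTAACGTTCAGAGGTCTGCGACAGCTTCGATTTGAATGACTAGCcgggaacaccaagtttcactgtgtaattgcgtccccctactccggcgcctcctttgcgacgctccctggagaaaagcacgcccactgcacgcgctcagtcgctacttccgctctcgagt
AP3S1, chr5:115841685-115841934, plus strand: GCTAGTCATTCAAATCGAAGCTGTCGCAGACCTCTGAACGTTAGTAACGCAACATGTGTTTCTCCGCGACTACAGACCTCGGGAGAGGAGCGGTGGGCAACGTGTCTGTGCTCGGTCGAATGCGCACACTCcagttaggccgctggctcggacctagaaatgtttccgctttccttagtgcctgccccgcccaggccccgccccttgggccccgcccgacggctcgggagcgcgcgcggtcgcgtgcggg

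The chromosomal neighbours of ATG12 were then described, a set chosen after the AP3S1 values had been seen. Of the 6 tested protein-coding genes on each side, 6 of 12 were higher and 6 of 12 lower in HCT116 vehicle than in Hke3 (limma, adjusted p under 0.05), against 24.6% higher and 23.2% lower of all genes tested. Against Hkh-2, 7 of 12 were higher and 0 lower, where 14.3% of all genes tested were higher and 21.7% lower. Both comparisons use the same vehicle arrays. FEM1C, the nearest tested gene on the other side of ATG12, was 0.40 above Hke3 and 0.65 above Hkh-2. TRIM36 was 0.48 and 0.76 above them, COMMD10 0.32 and 0.74, and SEMA6A, a transmembrane semaphorin, 0.83 and 0.96 (largest adjusted p for these genes 0.0320 for COMMD10 against Hke3). CCDC112 was 0.55 and 0.45 above them but had a mean of 6.19 in HCT116 vehicle and means under the floor of 6 in both lines, so it entered the test through HCT116 alone. The counts of higher genes given above include it. With values under 6 set to 6, CCDC112 was 0.19 above each line and both calls were lost (adjusted p = 0.0768 and 0.0940). PGGT1B, which lies among these genes, was -0.56 against Hke3 and 0.01 against Hkh-2. Farther out, MCC was lower than in Hke3 by 0.72 and 0.56 higher than in Hkh-2, and DCP2 was lower than in Hke3 by 0.45 and had -0.20 against Hkh-2. Beyond SEMA6A, DTWD2, DMXL1 and TNFAIP8 were lower than in Hke3 by 0.31 to 0.67 and within 0.07 of Hkh-2. ATG12 had the largest differences of these 13 genes. Several of these calls rested on single arrays, on the choice of probe set or on scaling. Without _s_at and _x_at probe sets COMMD10 was 0.15 above Hke3 (adjusted p = 0.344), and its call was also lost with array medians subtracted (0.0612). TRIM36 was 0.16 above Hke3 with the mean of its probe sets (adjusted p = 0.0572). The call of COMMD10 against Hke3 was lost without HCT116 vehicle replicate 1 (adjusted p = 0.107) or replicate 3 (0.0874), and without Hke3 replicate 3 its difference was 0.19 (0.105). That of TRIM36 was lost without HCT116 vehicle replicate 1 (0.31, adjusted p = 0.0814) or Hke3 replicate 3 (0.39, 0.0557). That of DMXL1 was lost without Hke3 replicate 2 (adjusted p = 0.0536), its difference being -0.41 without HCT116 vehicle replicate 2, and that of DTWD2 was lost without any of 8 arrays (adjusted p up to 0.179). The call of CCDC112 against Hkh-2 was lost without HCT116 vehicle replicate 1 or 3 or Hkh-2 replicate 2 (adjusted p = 0.0754 to 0.103), and its difference from Hke3 was 0.36 without Hke3 replicate 3.

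**Figure D2:**
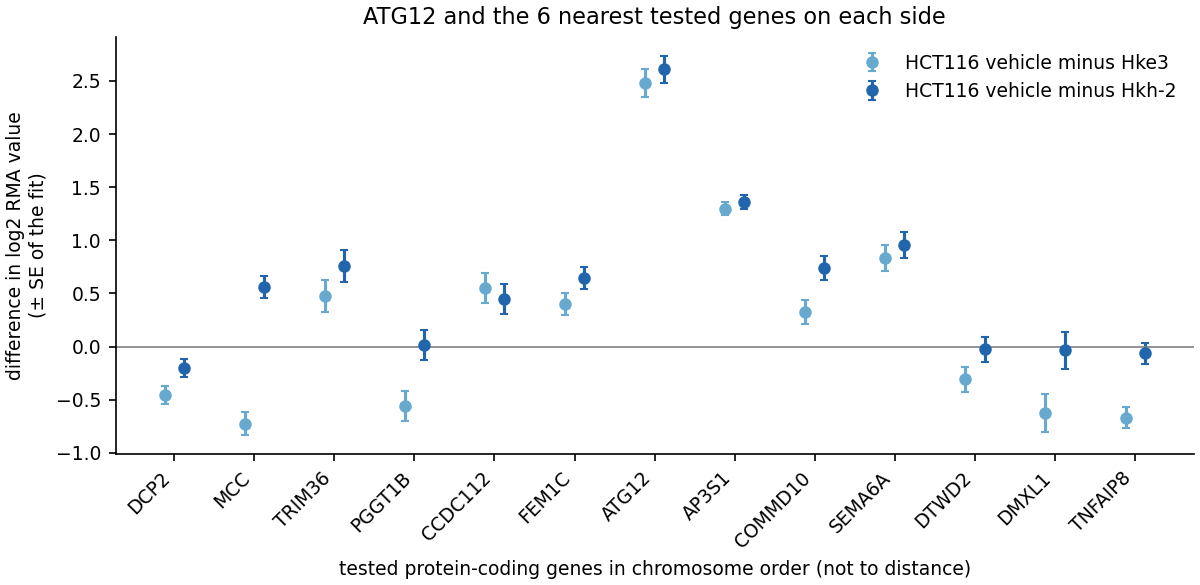
Difference in log2 RMA value (vertical axis, ± SE of the fit) of HCT116 vehicle minus Hke3 and minus Hkh-2 for ATG12 and the 6 nearest tested protein-coding genes on each side, in chromosome order and not to distance. ATG12 (2.48 and 2.61) and AP3S1 (1.30 and 1.36) stand highest, and DCP2, MCC, PGGT1B, DTWD2, DMXL1 and TNFAIP8 are below 0 against Hke3.

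Apart from ATG12, the core genes that differed from HCT116 were mostly lower in it. Of the other 9, 0 were higher and 4 lower in HCT116 vehicle than in Hke3, and 1 was higher and 4 lower than in Hkh-2. Of all genes tested, 24.6% were higher and 23.2% lower against Hke3, and 14.3% and 21.7% against Hkh-2. In Hke3 minus Hkh-2, 2 were higher and 2 lower, where 16.3% of all genes tested were higher and 23.5% lower. The median difference over the 9 was -0.09 against Hke3, -0.22 against Hkh-2 and 0.03 between the lines, and over all genes tested 0.04, -0.02 and -0.06. These genes were listed with results of these arrays known, so the p-values below, from limma with Benjamini-Hochberg adjustment over all 12852 genes, are not independent evidence about the list.

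Of the conjugating enzymes, ATG3 was highest in Hkh-2 and ATG10 in Hke3. On 221492_s_at it had 11.25, 11.25 and 11.28 in HCT116 with doxycycline, 11.27, 11.04 and 11.20 with vehicle, 11.11, 11.15 and 11.11 in Hke3, and 11.87, 11.93 and 11.99 in Hkh-2. The Hkh-2 arrays lay above all others, and the remaining groups overlapped. HCT116 vehicle was lower than Hkh-2 by 0.76 log2 units (SE 0.0735, adjusted p = 3.81e-06), Hke3 minus Hkh-2 was -0.80 (adjusted p = 2.75e-06), and HCT116 vehicle minus Hke3 was 0.05 (adjusted p = 0.619). The dimmer probe set 220237_at gave -0.87 against Hkh-2, -1.09 for Hke3 minus Hkh-2 and 0.22 against Hke3. Its group mean was over the floor of 6 in Hkh-2 alone (6.69). It entered the test through that group, so its values are a description only. ATG10, which transfers ATG12 to ATG5, had 6.48, 6.41 and 6.66 with doxycycline, 6.46, 6.07 and 6.37 with vehicle, 7.08, 6.81 and 6.74 in Hke3, and 6.40, 6.52 and 6.64 in Hkh-2. Hke3 was the highest group, and the other groups overlapped near the floor of 6. ATG10 was lower in HCT116 vehicle than in Hke3 by 0.57 (SE 0.119, adjusted p = 0.00160) and was 0.35 higher in Hke3 than in Hkh-2 (adjusted p = 0.0313), a call that was lost without Hke3 replicate 1 (adjusted p = 0.143), Hkh-2 replicate 1 (0.116) or Hkh-2 replicate 2 (0.0779). Its second tested probe set, 207774_at, passed the test in no comparison.

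Of ATG7, ATG5 and ATG16L1, which act on or with ATG12, only ATG16L1 passed the test on its main probe set, and against Hkh-2 only. ATG7 (224025_s_at) lay between 8.59 and 8.76 over all 12 arrays, and HCT116 vehicle minus Hke3 was 0.05 (SE 0.0673, adjusted p = 0.532) and minus Hkh-2 0.09 (adjusted p = 0.301). ATG5 (202511_s_at) lay between 10.63 and 10.88 over all arrays, with differences of -0.08 (SE 0.0766, adjusted p = 0.381) and -0.06 (adjusted p = 0.611). Another ATG5 probe set, 202512_s_at, went another way, with 7.83, 7.25 and 7.63 in HCT116 vehicle, 8.46, 8.21 and 7.88 in Hke3, and 7.40, 7.11 and 7.37 in Hkh-2. On it Hke3 was highest, HCT116 vehicle minus Hke3 being -0.61 (adjusted p over probe sets 0.00711) and Hke3 minus Hkh-2 0.89 (0.000886), so the ATG5 probe sets did not give 1 pattern. ATG16L1 (232612_s_at) had 7.79, 7.74 and 7.72 in HCT116 vehicle, 7.68, 7.64 and 7.68 in Hke3, and 7.46, 7.53 and 7.65 in Hkh-2. It was 0.20 higher in HCT116 vehicle than in Hkh-2 (SE 0.0731, adjusted p = 0.0461), with no overlap of arrays. That call was lost under 14 of its alternative settings, and the difference from Hke3 was 0.08 (adjusted p = 0.360).

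Both ATG8-family genes of the core list were lower in HCT116 than in the recombined lines, GABARAPL1 by far the more. On 208868_s_at GABARAPL1 had 7.31, 7.49 and 7.58 in HCT116 with doxycycline, 7.51, 7.64 and 7.58 with vehicle, 8.25, 8.41 and 8.28 in Hke3, and 9.99, 10.02 and 10.23 in Hkh-2. The 2 HCT116 groups overlapped, every Hke3 array lay above them, and every Hkh-2 array lay above Hke3. GABARAPL1 was lower in HCT116 vehicle than in Hke3 by 0.74 log2 units (SE 0.0917, adjusted p = 2.89e-05), a 1.67-fold difference, and than in Hkh-2 by 2.50 (adjusted p = 3.23e-10), a 5.67-fold difference. Hke3 minus Hkh-2 was -1.77 (adjusted p = 1.22e-08), so the lines differed from each other by more than Hke3 differed from HCT116 vehicle. Of the 12852 genes tested, GABARAPL1 ranked 67th from the bottom by its difference from Hkh-2. Its other probe set, 208869_s_at, gave -1.02, -2.82 and -1.79 in the same comparisons. Probe set 211458_s_at, which names GABARAPL3 and GABARAPL1 and can be attributed to neither, gave -1.05, -2.81 and -1.76.

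MAP1LC3B showed a smaller difference from each line. On 208786_s_at it had 10.83, 10.91 and 10.81 in HCT116 with doxycycline, 10.87, 10.90 and 10.82 with vehicle, 11.26, 11.14 and 11.17 in Hke3, and 11.36, 11.30 and 11.22 in Hkh-2. All HCT116 arrays lay under all arrays of the recombined lines, which overlapped each other. It was lower in HCT116 vehicle than in Hke3 by 0.33 (SE 0.0687, adjusted p = 0.00172) and than in Hkh-2 by 0.43 (adjusted p = 0.000308). Hke3 minus Hkh-2 was -0.10 (adjusted p = 0.270). Probe set 208785_s_at gave -0.23 and -0.31 against the lines, also without overlap of arrays.

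The 250 bases before the GABARAPL1 start are shown as those of the core gene with the largest change in this direction. Capitals mark its single match to TGACGTCA, the cyclic AMP response element.
GABARAPL1, chr12:10212627-10212876, plus strand: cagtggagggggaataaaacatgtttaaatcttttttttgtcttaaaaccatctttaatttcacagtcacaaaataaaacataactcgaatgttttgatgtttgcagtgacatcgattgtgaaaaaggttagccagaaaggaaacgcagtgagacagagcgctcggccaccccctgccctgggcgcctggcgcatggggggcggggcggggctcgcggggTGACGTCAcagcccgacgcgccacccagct

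All 10 core genes matched the RefSeq promoter table of GRCh38.p14, with 13 windows in all since ATG5 has 2 and SQSTM1 has 3. On either strand, TGACGTCA was in the GABARAPL1 window alone among these, and in 1.65% of 35116 windows of all genes. The E-box CACGTG, which the lysosomal factors TFEB, TFE3 and MITF can bind within a longer motif, was in the ATG3 window alone (6.34% of all windows). The ETS core CCGGAAG was in a window of ATG3, ATG5, ATG16L1 and BECN1 (8.52%), and TGACNNNGC, the antioxidant response element, was in the MAP1LC3B window (10.9%). The AP-1 site TGACTCA (4.20%) and the FOXO site GTAAACA (2.98%) were in none of the 13, and the ATG12 window held none of the motifs searched. A TGACTCA followed by GC would also count as TGACNNNGC, and a match describes these letters and not a bound factor.

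SQSTM1, the cargo receptor, was lowest in HCT116 and highest in Hke3. On 201471_s_at it had 10.36, 10.55 and 10.45 in HCT116 with doxycycline, 10.36, 10.84 and 10.39 with vehicle, 11.37, 11.33 and 11.61 in Hke3, and 10.92, 11.11 and 10.80 in Hkh-2. Hke3 lay above all other arrays, while HCT116 vehicle replicate 2, one of the arrays that stood apart, reached the Hkh-2 range. SQSTM1 was lower in HCT116 vehicle than in Hke3 by 0.90 log2 units (SE 0.130, adjusted p = 9.85e-05), a 1.87-fold difference, and than in Hkh-2 by 0.41 (adjusted p = 0.0255). Hke3 minus Hkh-2 was 0.49 (adjusted p = 0.00889). The call against Hkh-2 was lost without HCT116 vehicle replicate 1 (adjusted p = 0.107) or replicate 3 (0.0921), and without Hkh-2 replicate 1 (0.0559) or replicate 2 (0.109). On 213112_s_at SQSTM1 had 7.77, 7.90 and 7.76 in HCT116 vehicle, 8.78, 8.90 and 9.10 in Hke3, and 8.26, 8.44 and 8.25 in Hkh-2, so that all 3 groups were separate. The differences there were -1.12 against Hke3 and -0.51 against Hkh-2 (adjusted p over probe sets 1.75e-06 and 0.00126). Probe sets 239004_at and 244804_at differed by at most 0.18 in these comparisons and passed no test, so the SQSTM1 result rests on 2 of its 4 tested probe sets.

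BECN1 did not pass the test in any comparison. Its values on 208946_s_at lay between 10.34 and 10.56 over all 12 arrays, and HCT116 vehicle minus Hke3 was -0.09 (SE 0.0712, adjusted p = 0.317) and minus Hkh-2 -0.09 (adjusted p = 0.383).

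**Figure D3:**
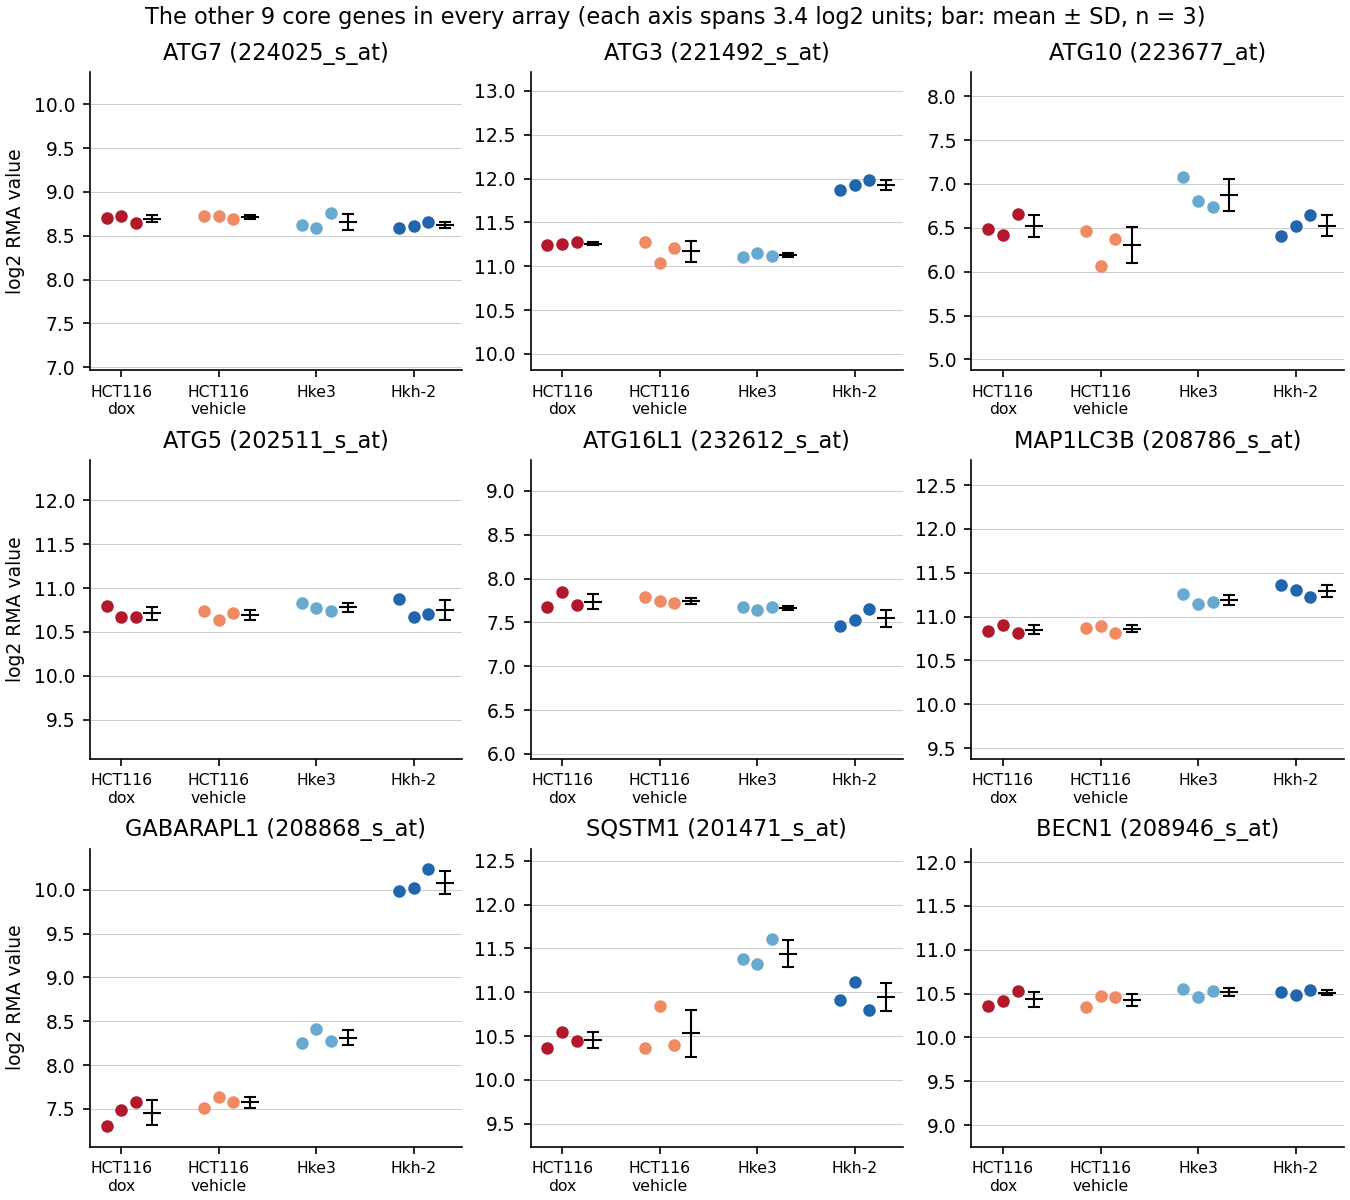
Log2 RMA value (vertical axes, each spanning 3.4 log2 units) of the 9 core genes other than ATG12 in every array of HCT116 with doxycycline, HCT116 with vehicle, Hke3 and Hkh-2, with the mean ± SD beside the points (n = 3). GABARAPL1 is lowest in HCT116 (7.31 to 7.64) and highest in Hkh-2 (9.99 to 10.23), ATG3 is highest in Hkh-2, SQSTM1 is highest in Hke3, and the groups overlap for ATG5. For BECN1 they overlap except HCT116 vehicle (highest 10.476) and Hkh-2 (lowest 10.481).

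**Figure D4:**
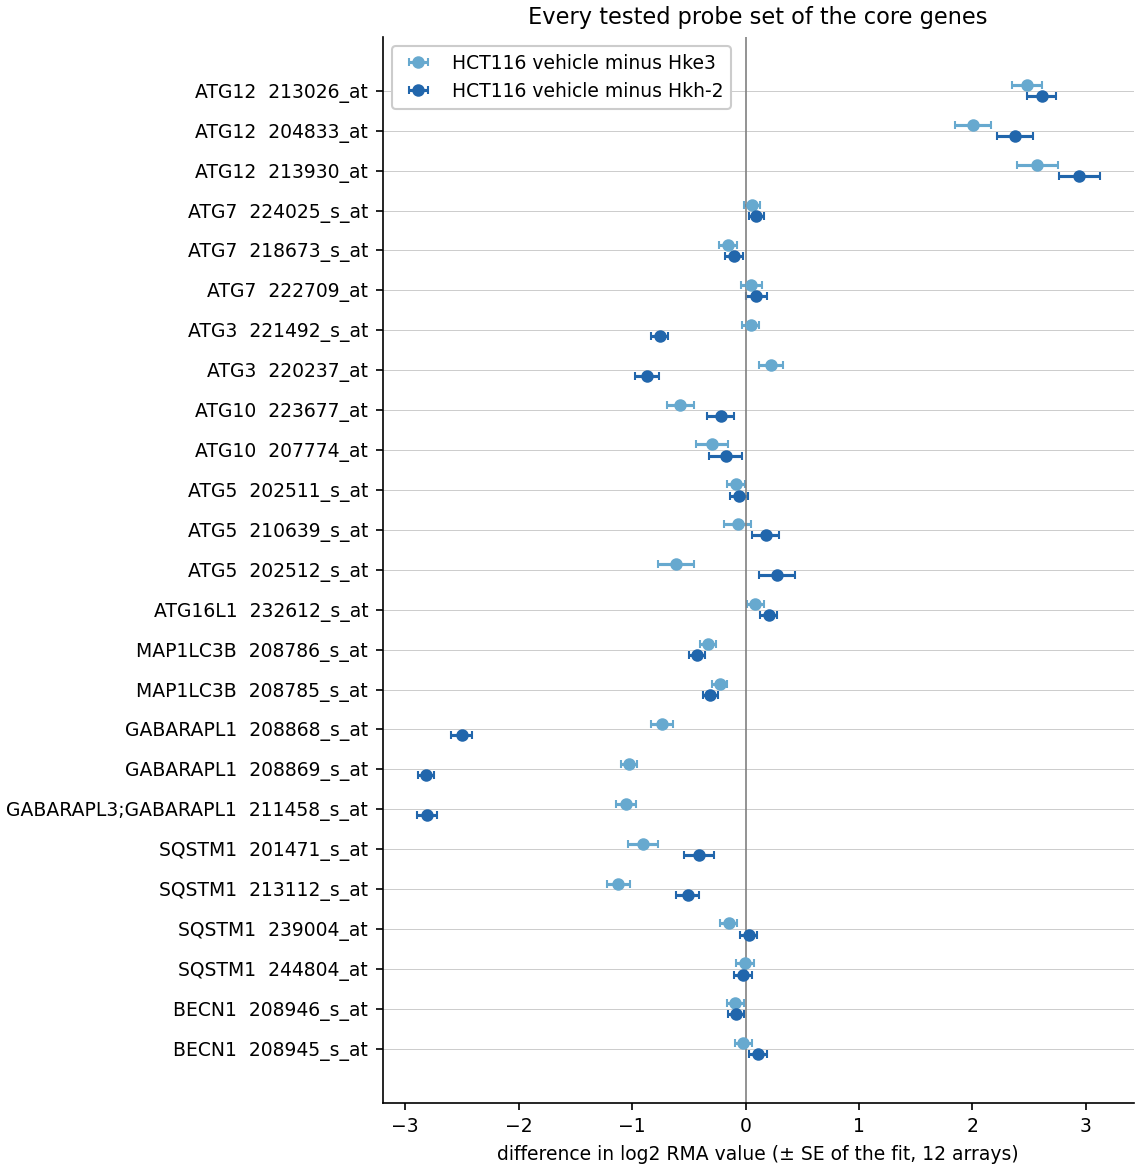
Difference in log2 RMA value (horizontal axis, ± SE of the fit over 12 arrays) of HCT116 vehicle minus Hke3 and minus Hkh-2 for every tested probe set that names a core gene, 1 row each. The 3 ATG12 probe sets lie between 2.01 and 2.94, the GABARAPL1 probe sets between -2.82 and -0.74, and the ATG5 and SQSTM1 probe sets do not all lie together.

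Doxycycline gave no called difference in HCT116 control cells. Of the 12852 genes tested with limma, 0 passed an adjusted p under 0.05 in doxycycline minus vehicle (0% higher and 0% lower), and 127 had an unadjusted p under 0.05, with none of the 9 other core genes among them. The largest of the 9 was ATG10, with 0.22 (SE 0.119, adjusted p = 1.00), and its doxycycline and vehicle arrays overlapped. GABARAPL1 had -0.12 (SE 0.0917) and ATG3 0.09 (SE 0.0735), and the rest were within 0.08 of 0.

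The wider pathway was described with 93 further genes in 8 lists by role, of which 91 had a probe set and 87 were tested. Against Hke3, 22 of the 87 were higher and 27 lower in HCT116 vehicle, where 24.6% of all genes tested were higher and 23.2% lower. Against Hkh-2, 6 were higher and 30 lower, where the shares of all genes tested were 14.3% and 21.7%. In Hke3 minus Hkh-2, 13 were higher and 25 lower, where they were 16.3% and 23.5%. Medians over the 87 were 0.07, -0.16 and -0.17 in these comparisons, and over all genes tested 0.04, -0.02 and -0.06. With doxycycline 0 of the 87 passed the test, and 0 had an unadjusted p under 0.05.

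The list of lysosomal genes and TFEB factors held no gene called higher in HCT116. Of its 16 tested genes, 8 were lower in HCT116 vehicle than in Hke3 and 12 than in Hkh-2, with medians of -0.27 and -0.40. Over all genes tested 23.2% and 21.7% were lower and 24.6% and 14.3% higher in these comparisons, with medians of 0.04 and -0.02. MITF, a transcription factor of the TFEB family that drives lysosomal and melanocyte genes, averaged 6.62 ± 0.14 in HCT116 vehicle, 9.77 ± 0.23 in Hke3 and 8.67 ± 0.12 in Hkh-2 (SD, n = 3 each). Its differences were -3.15 (SE 0.112, adjusted p = 2.91e-10) and -2.05 (adjusted p = 1.44e-08). CTSB, the lysosomal protease cathepsin B, had -1.02 against Hke3 and -0.91 against Hkh-2 on 200839_s_at (SE 0.0912, adjusted p = 1.56e-06 and 5.21e-06). Its probe sets went in opposite directions against Hkh-2, since 227961_at gave 0.44 there while the other 4 were below 0. LAMP1 (-0.42 and -0.39), LAMP2 (-0.99 and -0.41), CTSD (-0.61 and -0.87), NEU1 (-0.50 and -0.70), ATP6V1H (-0.35 and -0.32) and TFE3 (-0.54 and -0.96) were also lower than in Hke3 and Hkh-2. With the mean of their probe sets, the calls of ATP6V1H (-0.07 and -0.03) and of TFE3 against Hke3 (-0.10) were lost, and LAMP1 missed the threshold against Hke3 without _s_at and _x_at probe sets (-0.30, adjusted p = 0.0569).

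Of 13 tested cargo receptors other than SQSTM1, 2 were higher and 6 lower in HCT116 vehicle than in Hke3, where 24.6% of all genes tested were higher and 23.2% lower. Against Hkh-2, 0 were higher and 7 lower, where the shares of all genes were 14.3% and 21.7%. OPTN, a receptor for ubiquitinated cargo and damaged mitochondria, averaged 8.80 ± 0.12 in HCT116 vehicle, 9.95 ± 0.034 in Hke3 and 9.71 ± 0.14 in Hkh-2 (SD, n = 3 each), with differences of -1.14 (SE 0.0831, adjusted p = 2.23e-07) and -0.91 (adjusted p = 2.14e-06). TAX1BP1, which also binds ubiquitin and ATG8 proteins, averaged 11.26 ± 0.22 in HCT116 vehicle, 11.97 ± 0.15 in Hke3 and 12.67 ± 0.081 in Hkh-2, with differences of -0.71 (SE 0.107, adjusted p = 0.000149) and -1.41 (adjusted p = 3.71e-07). The mitophagy receptors BNIP3, BNIP3L and FUNDC1 and the endoplasmic reticulum receptor RETREG1 were lower by 0.26 to 0.52. Of these, RETREG1 lost its call against Hke3 without HCT116 vehicle replicate 2 (adjusted p = 0.0747) or Hke3 replicate 1 (0.0847), and against Hkh-2 without HCT116 vehicle replicate 1 or 2 or any Hkh-2 array (0.0537 to 0.118). BNIP3L lost its call against Hkh-2 without HCT116 vehicle replicate 1 (0.123) or any Hkh-2 array (0.0528 to 0.0880), and FUNDC1 without Hkh-2 replicate 3 (0.0582). The receptors higher than in Hke3 were CALCOCO2 (NDP52), a receptor for ubiquitinated bacteria and mitochondria (0.42, adjusted p = 0.00199), and TOLLIP (0.42, adjusted p = 0.0389), which was lower than in Hkh-2 by 0.55. CALCOCO2 had -0.33 against Hke3 without _s_at and _x_at probe sets, and 0.04 with the mean of its probe sets (adjusted p = 0.625). The TOLLIP call against Hke3 was lost without any of 7 arrays, and its difference was 0.63 without Hke3 replicate 3. The TOLLIP call against Hkh-2 was lost without Hkh-2 replicate 3 (adjusted p = 0.0579) and with the mean of its probe sets (-0.11, adjusted p = 0.36).

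The list of 15 kinase regulators held genes of mTOR and AMPK signalling upstream of autophagy, and also BCL2 and BCL2L1, which are outside that signalling. Of these 15, 7 were higher and 3 lower in HCT116 vehicle than in Hke3, beside 24.6% and 23.2% of all genes tested. Against Hkh-2, 3 were higher and 1 lower, beside 14.3% and 21.7%. DEPTOR, an inhibitory subunit of mTOR complexes, averaged 7.95 ± 0.20 in HCT116 vehicle, 6.08 ± 0.14 in Hke3 and 7.26 ± 0.13 in Hkh-2 (SD, n = 3 each), with differences of 1.86 (SE 0.124, adjusted p = 9.52e-08) and 0.68 (adjusted p = 0.000790). DDIT4, which restrains mTORC1 under stress, was 0.62 above Hke3 (SE 0.133, adjusted p = 0.00188) and 1.57 above Hkh-2 (adjusted p = 1.03e-06). MTOR itself was 0.41 above Hke3 and 0.35 above Hkh-2, calls that were lost with the mean of its probe sets (0.14 and 0.10).

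The remaining lists were mixed, and of all genes tested 24.6% were higher and 23.2% lower against Hke3, and 14.3% and 21.7% against Hkh-2. Of 9 genes of membrane supply, 3 rose and 3 fell in HCT116 vehicle relative to Hke3, and 2 rose and 2 fell relative to Hkh-2. They included the lipid scramblase ATG9A (0.72 and 0.50) and the phosphoinositide-binding WIPI1 (-0.96 and -0.84). The ATG9A call against Hkh-2 was lost without HCT116 vehicle replicate 2 (0.31, adjusted p = 0.128) or any Hkh-2 array (0.0576 to 0.1125). For 9 further ATG8-family genes and their proteases these counts were 3 and 2 against Hke3, and 0 and 1 against Hkh-2. ATG4A, a protease that processes ATG8 proteins, was the one lower gene against Hkh-2 (-0.33), and had -0.45 against Hke3. Without HCT116 vehicle replicate 2 it had -0.17 against Hkh-2 (adjusted p = 0.139) and -0.30 against Hke3 (0.0144). The call against Hkh-2 was also lost without any Hkh-2 array (0.0709 to 0.114), Hke3 replicate 1 or HCT116 doxycycline replicate 2 or 3 (0.0516 to 0.0549). Of 13 fusion genes, 4 rose and 4 fell against Hke3, and 1 rose and 4 fell against Hkh-2, among them the SNARE VAMP8 (-0.29 and -0.34) and the adaptor PLEKHM1 (-0.28 and -0.58), whose call against Hke3 was lost without Hke3 replicate 2 (adjusted p = 0.0528) and with the mean of its probe sets (-0.12). Of 5 initiation genes, 2 rose and 1 fell against Hke3, and 0 rose and 2 fell against Hkh-2, and ULK2, an initiating kinase, had -0.83 and -0.25, the call against Hkh-2 being lost without any of 9 arrays (adjusted p up to 0.175). Of 7 genes of the lipid kinase complex, 1 was higher than in Hke3 and 1 lower than in Hkh-2.

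**Figure D5:**
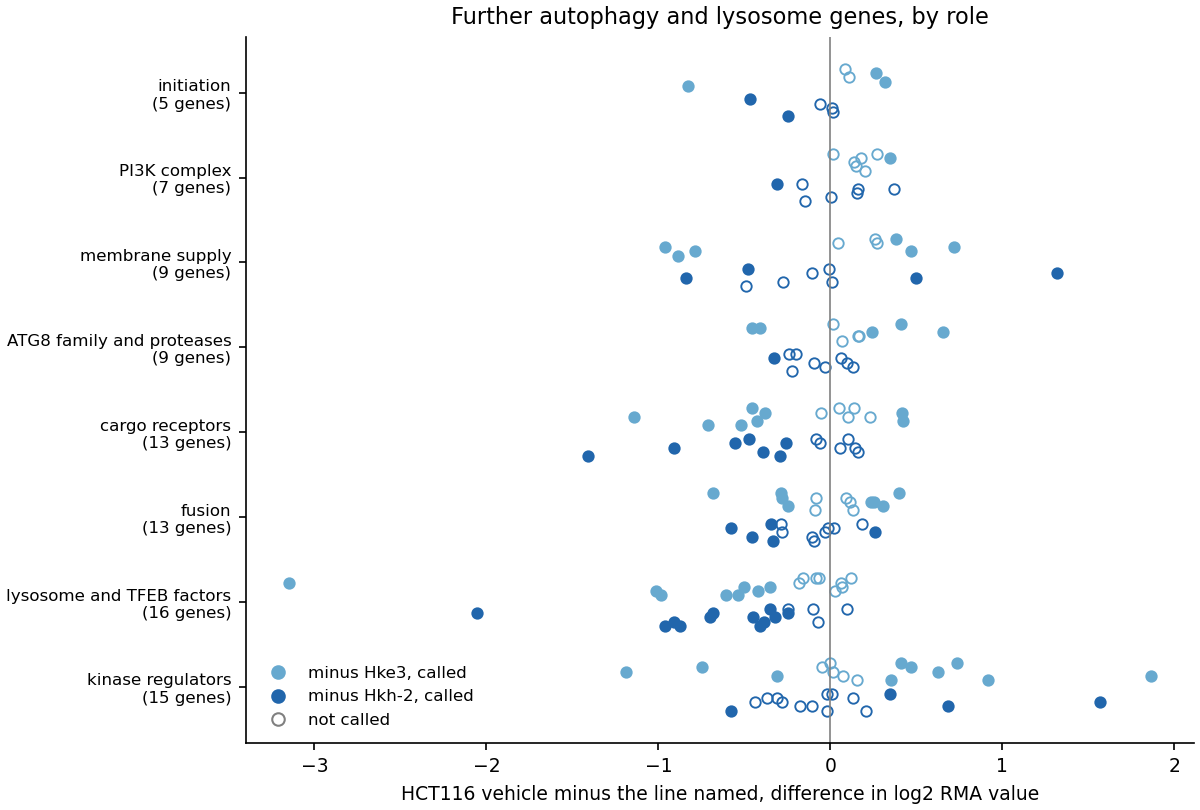
Difference in log2 RMA value (horizontal axis) of HCT116 vehicle minus Hke3 and minus Hkh-2 for the 87 tested genes of the wider pathway, in rows by role, filled points being called at adjusted p under 0.05. In the row of lysosomal genes and TFEB factors all filled points lie left of 0, and MITF is the farthest left at -3.15.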

How the data were processed

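Total RNA of 4 groups of 3 samples was hybridized to Affymetrix arrays. The deposited values are on the log2 scale, and the submitters' processing notes name RMA as the method. The RMA version, chip definition and set of arrays normalized together are not given in the sources used here.

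The platform annotation gave 1 gene for 41097 of 54675 probe sets, and 41043 of these had a gene ID in RefSeq (GRCh38.p14), whose symbols were used. The 1801 probe sets with several symbols stand for no gene. A limma model (version 3.58.1, R 4.3.3) with a mean for each of the 4 groups and eBayes took in all 12 arrays, since the study's methods name no test for these arrays. Genes with at least 1 group mean of 6 were tested, with Benjamini-Hochberg adjustment over 12852 genes and, for single probe sets, over 27403 probe sets. A gene was called at an adjusted p under 0.05. The fit was tested on simulated data. Precision is limited by having 3 arrays a group.

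The genes and lists were chosen with earlier results of these data known. The text names all core genes, up to 2 genes of each wider list called alike against both lines with the largest difference nearer 0, and the 5 genes most correlated with ATG12. LAMP1, LAMP2, CTSD, NEU1, ATP6V1H, TFE3, the mitophagy and endoplasmic reticulum receptors, MTOR and the neighbours on chromosome 5 were named after their values were seen.

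Replicate numbers come from the sample titles. Deviations from group means correlated between same-numbered doxycycline and vehicle arrays (r = 0.228, 0.212 and 0.453), so these may be paired. The main fit held no term for pairing, so the doxycycline results come from an unpaired fit. A replicate block, run as an alternative, covered all groups. Between same-numbered arrays of HCT116 vehicle and Hkh-2 the correlations were -0.046, 0.422 and 0.337. Between doxycycline and Hkh-2 they were 0.076, 0.134 and 0.104. Those of Hke3 with the other groups ranged from -0.58 to 0.355. Whether the replicate numbers pair any of these groups is not settled by these values. Alternatives were other probe set rules, filters, scalings, priors, a replicate block, a size threshold and omitted arrays.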

Additional observations from a re-analysis of the deposited data

Results flagged for a closer look

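Of the 9 core genes other than ATG12, 2 were higher and 2 lower in Hke3 than in Hkh-2, lines made by the same recombination from the same parent, by the test of that difference (limma, Benjamini-Hochberg over 12852 genes). Of all genes tested 16.3% were higher and 23.5% lower, so as a count this is near the share over all genes, and the genes are given for their values. Hke3 minus Hkh-2 was -1.77 for GABARAPL1 (adjusted p = 1.22e-08), -0.80 for ATG3 (adjusted p = 2.75e-06), 0.49 for SQSTM1 (adjusted p = 0.00889) and 0.35 for ATG10 (adjusted p = 0.0313). GABARAPL1 and ATG3 were lower in all 3 Hke3 arrays than in all 3 Hkh-2 arrays, and SQSTM1 and ATG10 were higher in all 3. The ATG10 call was lost with the mean of its probe sets (0.20, adjusted p = 0.102) and without any of 3 arrays. That of SQSTM1 was lost without _s_at and _x_at probe sets (0.18, adjusted p = 0.098). Hke3 replicate 3 was one of the arrays that stood apart, and the part of single clones in these differences was not tested.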

How the results depend on the processing

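The ATG12 differences moved by less than the spread between arrays under every alternative run. With single arrays left out they were 2.30 to 2.58 against Hke3 and 2.55 to 2.68 against Hkh-2. Of the other core genes (4 called against Hke3, 5 against Hkh-2 and 4 in Hke3 minus Hkh-2), 3 were called against Hkh-2 when probe sets were averaged. Without probe sets ending in _s_at or _x_at, which leaves 4 of the 9 genes to test, 1, 1 and 2 were called. The call against Hkh-2 and 1 of the 2 between the lines were ATG3 on 220237_at. That probe set passed the floor through Hkh-2 alone, so these calls are a description and not a test. With a size over 0.5 required, 2 were called against Hkh-2 and 2 in Hke3 minus Hkh-2. Leaving out single arrays gave 4 to 4, 3 to 5 and 3 to 4. The counts of 3 against Hkh-2 came without HCT116 vehicle replicate 1 or 3 or Hkh-2 replicate 1 or 2, where SQSTM1 and ATG16L1 were lost. For the wider lists (49, 36 and 38 called), requiring a size over 0.5 gave 22, 15 and 19, leaving out HCT116 vehicle replicate 2 and Hke3 replicate 3 gave 58 in Hke3 minus Hkh-2, and single arrays gave 39 to 56, 24 to 45 and 26 to 51. 8 reversals occurred among 5500 single-gene values, all with another choice of probe sets. ATG7 against Hke3 was -0.23 with the mean of probe sets (adjusted p = 0.0199), where the dim probe set 1569827_at enters, and in Hke3 minus Hkh-2 CALCOCO2 was 0.00288 and LAMP1 -0.36. Without _s_at and _x_at probe sets, SQSTM1 against Hkh-2 was 0.0258, CALCOCO2 against Hke3 -0.33, and in Hke3 minus Hkh-2 OPTN was -0.0023, CALCOCO2 0.39 and LAMP1 -0.54. ATG16L1 against Hkh-2 missed the threshold without a filter (adjusted p = 0.0814), with array medians subtracted (0.102), with the compared groups alone (0.0784), with a trended robust prior (0.0712) and without 9 of the 12 arrays in turn.

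The replicate block changed the ATG16L1 call against Hkh-2 (adjusted p = 0.0690), the ULK2 call against Hkh-2 (0.0543) and the DTWD2 call against Hke3 (0.0682), and no other call of a named gene. With the block 4, 4 and 4 core genes were called against Hke3, against Hkh-2 and between the lines, 45, 36 and 38 wider genes, and 0 with doxycycline, and the ATG12 differences were 2.48, 2.61, 0.13 and -0.05. Of 12 arrays 6 correlated best with an array of their own number. Scaling moved the median of all genes by under 0.1 in each comparison.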

Other observations

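GABARAPL1 also lies beside genes whose values set Hkh-2 apart. OLR1, an endothelial receptor for oxidized lipoprotein, averaged 3.27 in HCT116 with doxycycline, 3.33 with vehicle, 3.62 in Hke3 and 8.88 in Hkh-2, and its neighbour TMEM52B averaged 2.99, 2.80, 2.95 and 6.79 in these groups. Both lay over the floor of 6 in Hkh-2 alone and entered the test through it, so these levels are a description, with no size or test of the difference. On the other side of GABARAPL1, KLRD1 and KLRC4 had probe sets but were under 6 in every group and were not tested. The nearest tested genes beyond them, MAGOHB, STYK1 and YBX3, were lower in HCT116 vehicle than in Hke3 by 0.34 to 1.01 and than in Hkh-2 by 0.57 to 0.88. With the mean of probe sets the calls of MAGOHB (-0.22 and -0.23) and of YBX3 against Hkh-2 (-0.26) were lost. These genes were looked at after the GABARAPL1 values were known.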
